A study of Mus musculus with 16 samples.

Results

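The Bcl2 family decides at the mitochondrion whether a stressed cell lives or dies, and 10 of its genes were followed here in primary mouse hippocampal cultures. They are the survival genes Bcl2, Bcl2l1 (which encodes Bcl-xL) and Mcl1, the effectors Bax and Bak1, and the BH3-only genes Bbc3 (Puma), Pmaip1 (Noxa), Bcl2l11 (Bim), Hrk (Harakiri) and Bid. They were listed by name, although earlier results of these data were known when they were chosen. All 10 were found among the 55385 genes of each table and passed the filter that left 17222 genes for testing. The data are RNA levels in 16 libraries, with 4 per shRNA and condition. The groups were Control-shRNA in baseline, Control-shRNA after 4 h of bicuculline, Dnmt3a1-shRNA in baseline and Dnmt3a1-shRNA after 4 h of bicuculline. All cultures came from newborn C57Bl/6N mice and all were infected with an adeno-associated virus that carries an shRNA behind the U6 promoter and GFP behind the chicken β-actin promoter, so the control cultures had the virus too. Bicuculline blocks GABA-A receptors and so drives bursts of action potentials, and Dnmt3a1 is the long isoform of the DNA methyltransferase Dnmt3a. The sequenced knockdown cultures carried 1 shRNA, named Dnmt3a1-shRNA2 in the study's text, and effects of an shRNA beyond its target cannot be told apart from the loss of Dnmt3a1.

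In this family the survival proteins hold the effectors in check, and the effectors, once free, form pores in the outer mitochondrial membrane and let cytochrome c out, which switches on the caspases. BH3-only proteins start the process by binding the survival proteins or by activating Bax and Bak directly, and most of them are controlled through the amount of their mRNA. Neurons depend on this balance during development and after injury, synaptic activity is known to protect them, and Puma, Bim and Harakiri are the BH3-only proteins best known from neuronal death. In addition, Mcl1 mRNA and protein turn over quickly, so that its level follows transcription closely.

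The libraries held 28912697 to 29586355 estimated counts each, with mitochondrial genes at 2.73% to 6.60% of them. Dnmt3a, the targeted gene (chr12:3806007-3914443, GRCm38), stood at 311, 293, 321 and 324 CPM (counts scaled to the library size after TMM normalisation) in replicates 1 to 4 of Control-shRNA in baseline and at 45.5, 39.4, 45.1 and 48.0 CPM in Dnmt3a1-shRNA. With bicuculline it stood at 338, 333, 325 and 311 CPM against 45.1, 47.8, 44.5 and 43.8 CPM, so the shRNA labels and the targeted gene went together in all 16 libraries. Markers of neurons summed to between 4614 and 6190.1 CPM over 5 genes in every library. The microglial markers Cx3cr1 and P2ry12, the oligodendrocyte factor Sox10 and the endothelial Cldn5 had fewer than 10 counts in each. Other markers of these lists were detected. The oligodendrocyte lineage list summed to 36.2 to 60.6 CPM and that of fibroblasts and vessels to 24.4 to 57.6 CPM over all libraries. Astrocyte markers were present, at 226 to 406 CPM in Control-shRNA in baseline, 248 to 507 CPM with bicuculline, and 304 to 548 and 421 to 624 CPM in the Dnmt3a1-shRNA groups. These are bulk samples, in which fewer cells of a type and less RNA per cell cannot be told apart.

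Levels of different genes were compared per length, as TPM (transcript abundance scaled for length and depth). In Control-shRNA in baseline the order from the highest was Bax with 152 ± 21.5 TPM (mean ± SD, n = 4, as in all groups), Bcl2l1 with 129.6 ± 4.57, Bbc3 with 54.8 ± 17.0, Mcl1 with 46.1 ± 3.09, Hrk with 38.8 ± 6.29, Bak1 with 26.1 ± 3.56, Bid with 16.4 ± 1.05, Pmaip1 with 9.72 ± 1.22, Bcl2 with 3.58 ± 0.582 and Bcl2l11 with 3.26 ± 0.440. The ranges over the 4 libraries overlapped between Bbc3 and Mcl1, between Mcl1 and Hrk and between Bcl2 and Bcl2l11, and the other neighbours in this order did not overlap. Bax and Bcl2l1 thus led the family at rest, and the founding member Bcl2 was among its scarcest transcripts. In the same cultures with bicuculline, Mcl1 at 88.9 ± 9.29 TPM had passed Bcl2l1 at 78.8 ± 5.01 TPM, with ranges that overlapped, and Bbc3 had dropped from the third to the sixth place at 19.4 ± 7.73 TPM. In Dnmt3a1-shRNA in baseline Hrk took the third place with 69.6 ± 6.24 TPM, in a range that overlapped that of Bbc3, and in Dnmt3a1-shRNA with bicuculline the order from the top was Bax with 126 ± 28.3, Mcl1 with 109 ± 10.5, Bcl2l1 with 77.0 ± 8.47 and Hrk with 43.2 ± 8.10 TPM.

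**Figure D1:**
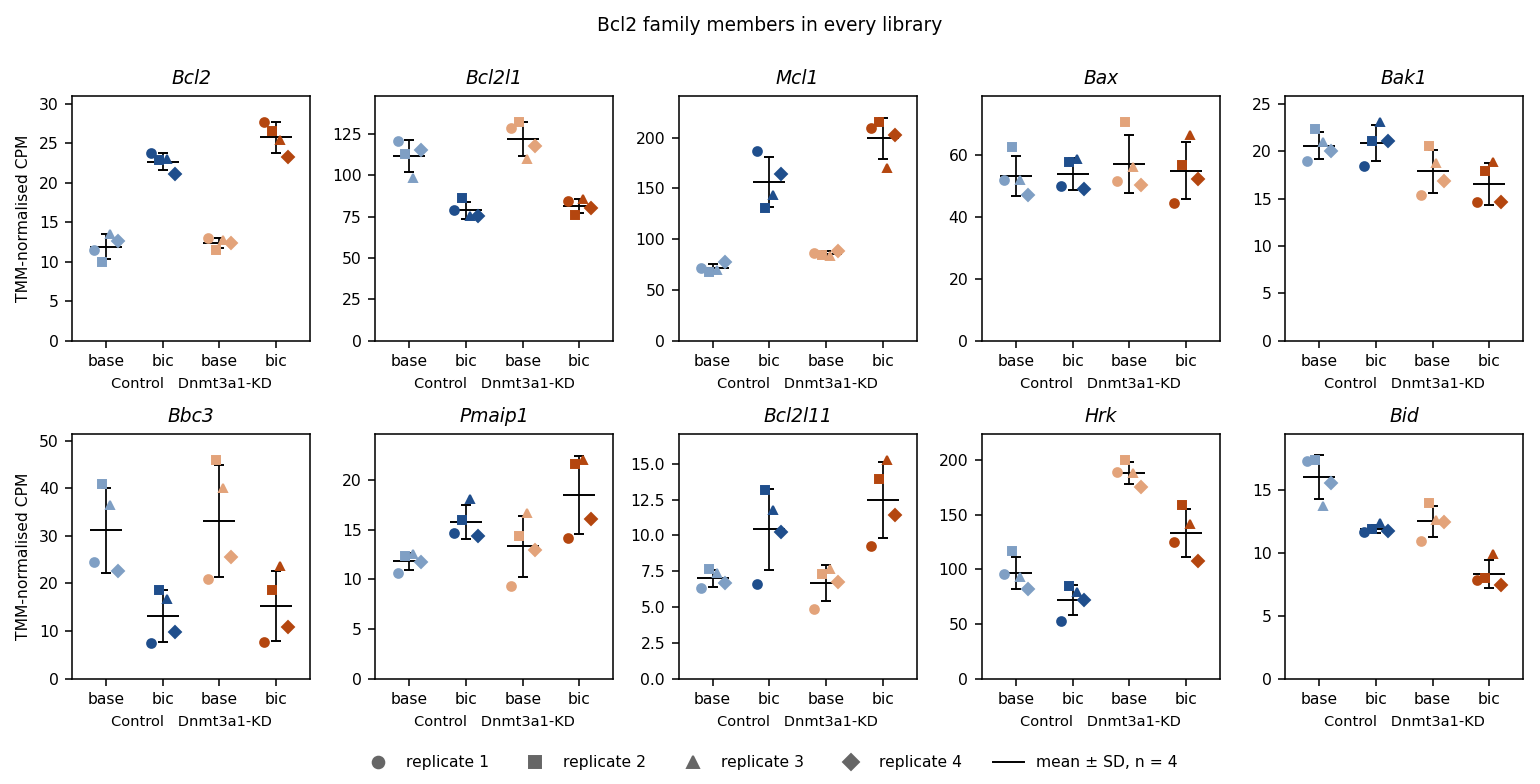
CPM of the 10 members in every library; colours mark the 4 groups (base, baseline; bic, bicuculline; Dnmt3a1-KD, Dnmt3a1-shRNA), symbols the replicate number, and bars the mean ± SD of 4 libraries. Mcl1 and Bcl2 rise with bicuculline, Bbc3 and Bcl2l1 fall, Hrk is higher in the 4 Dnmt3a1-shRNA libraries of either condition, and Bax lies between 44.4 and 70.5 CPM throughout.

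Promoter windows of the members were examined because the study concerns a DNA methyltransferase and a transcriptional stimulus. Windows of 250 bases before to 50 bases after each gene's start were taken from RefSeq on GRCm38.p6, which holds 14 windows for 9 of the 10 members. No window was found for Pmaip1. CpG, the site of DNA methylation, was found 44 times in the window of Bcl2, 34, 30 and 39 times in those of the 3 starts of Bbc3, 33 times in that of Mcl1, 29 in that of Hrk, 27 and 38 in those of Bcl2l11, 22 in that of Bid, 19 in that of Bax, 11 in that of Bak1 and 1, 14 and 22 times in the 3 windows of Bcl2l1. The median over all 32851 windows was 7, with quartiles of 3 and 20. Motifs were searched on both strands: the CREB site TGACGTCA and its core TGACG (which the full site contains), the AP-1 site TGANTCA, the Egr site GCGTGGGCG, the E-box CACGTG, the FOXO site TGTTTAC, and the CArG box and the MEF2 site. The core TGACG was found in the windows of Bcl2, Mcl1 and Hrk and in 1 of the 3 of Bbc3, against 20.8% of all windows. It was found in genes that rose with bicuculline and in genes that did not. TGTTTAC was found in 1 window each of Bbc3 and Bcl2l11, against 3.65% of all windows, and CACGTG in that of Bax, at 2 places, and in 1 of Bbc3, against 7.15%. The other 5 motifs were found in no member's window, against 1.79% of all windows for the full CREB site, 7.81% for AP-1, 0.612% for Egr, 1.63% for the CArG box and 0.557% for the MEF2 site. The 5 stretches below are those of members that changed and held a motif. For Bbc3 only the window with TGACG, and for Bcl2l11 only that with the FOXO site, is printed. Bcl2l1 and Bid also changed but held none of these motifs, and are not printed. The stretches run 5′ to 3′ along the gene's strand. Each stops before the gene's first GENCODE exon base within the window, or at the window's end. Those of Bbc3 and Hrk lie inside the annotated genes, which start at 16308393 and 118164648. Capitals mark TGACG (or CGTCA, the same core on the other strand), and in Bcl2l11 the FOXO site, read on the other strand.
Mcl1, chr3:95658471-95658770, plus strand: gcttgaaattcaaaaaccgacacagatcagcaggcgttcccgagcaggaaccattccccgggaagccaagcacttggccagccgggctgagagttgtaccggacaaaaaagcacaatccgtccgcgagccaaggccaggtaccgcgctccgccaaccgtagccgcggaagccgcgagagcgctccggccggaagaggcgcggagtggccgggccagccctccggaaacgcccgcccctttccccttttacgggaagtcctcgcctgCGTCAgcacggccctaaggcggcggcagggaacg
Bcl2, chr1:106714275-106714540, minus strand: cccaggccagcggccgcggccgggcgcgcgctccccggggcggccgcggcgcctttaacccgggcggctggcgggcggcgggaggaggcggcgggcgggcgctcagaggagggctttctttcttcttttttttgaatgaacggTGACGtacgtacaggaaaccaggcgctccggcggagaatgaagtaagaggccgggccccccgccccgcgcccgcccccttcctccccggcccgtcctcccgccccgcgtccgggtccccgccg
Bbc3, chr7:16309333-16309615, plus strand: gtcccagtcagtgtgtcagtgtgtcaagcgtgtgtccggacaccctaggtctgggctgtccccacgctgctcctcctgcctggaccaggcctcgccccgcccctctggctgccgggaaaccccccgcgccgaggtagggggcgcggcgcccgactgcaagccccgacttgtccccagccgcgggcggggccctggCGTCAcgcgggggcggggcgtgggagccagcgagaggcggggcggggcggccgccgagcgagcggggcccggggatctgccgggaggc
Bcl2l11, chr2:128125788-128126037, plus strand: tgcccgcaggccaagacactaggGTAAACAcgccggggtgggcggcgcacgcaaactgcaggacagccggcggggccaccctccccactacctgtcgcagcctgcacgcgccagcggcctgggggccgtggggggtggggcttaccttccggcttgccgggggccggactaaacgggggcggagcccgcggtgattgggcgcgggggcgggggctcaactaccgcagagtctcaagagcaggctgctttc
Hrk, chr5:118169514-118169747, plus strand: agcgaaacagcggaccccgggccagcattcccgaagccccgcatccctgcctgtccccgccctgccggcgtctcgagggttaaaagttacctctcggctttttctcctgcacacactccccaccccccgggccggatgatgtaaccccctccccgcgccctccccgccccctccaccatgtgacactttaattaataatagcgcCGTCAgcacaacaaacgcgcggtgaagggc

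First, the effect of bicuculline was examined within each shRNA. In Control-shRNA cultures the survival genes moved in opposite directions, with Mcl1 and Bcl2 higher and Bcl2l1 lower, and so did the BH3-only genes, with Bbc3 lower and Bcl2l11 higher. A gene was called when its adjusted p from edgeR was under 0.05 and its log2 fold change was over 0.5 in size. By this rule 5 of the 10 members were called in Control-shRNA, against 21.9% of all genes tested, with 3 higher (10.8% of all genes) and 2 lower (11.1% of all genes). In Dnmt3a1-shRNA cultures 6 of 10 were called, against 25.8% of all genes, 3 higher (12.6%) and 3 lower (13.2%). The median log2 fold change of the 10 members was 0.02 in Control-shRNA and −0.09 in Dnmt3a1-shRNA, beside 0.01 and −0.01 over all genes. The libraries of the 2 conditions did not overlap for 6 of 10 members in Control-shRNA, against 39.7% of all genes, and for 6 of 10 in Dnmt3a1-shRNA, against 40.4%. With bicuculline the summed markers of GABAergic neurons were higher too, from 1257 to 1602 CPM in Control-shRNA in baseline to 1853 to 2328 CPM, and from 984.5 to 1282 CPM to 1579.6 to 2084 CPM in Dnmt3a1-shRNA, with 3 of the 5 genes called in each. Their part in the changes below was not tested.

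Mcl1 (chr3:95658788-95663176), the short-lived survival gene, had the largest rise of the members in both shRNAs. It stood at 71.1, 67.7, 70.0 and 77.4 CPM in Control-shRNA in baseline and at 187, 131, 143 and 164 CPM with bicuculline. In Dnmt3a1-shRNA it stood at 86.8, 83.9, 83.7 and 88.5 CPM in baseline and at 209.5, 215, 170.2 and 202 CPM with bicuculline. Each bicuculline library exceeded each baseline library of its shRNA, 2.18-fold on average in Control-shRNA (log2 fold change 1.13, standard error 0.09, adjusted p = 4.2e-08) and 2.32-fold in Dnmt3a1-shRNA (1.22, standard error 0.09, adjusted p = 1.16e-08).

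Bcl2 itself (chr1:106538178-106714274) also rose, from a low level. Its values were 11.5, 9.94, 13.6 and 12.7 CPM in Control-shRNA in baseline and 23.7, 22.9, 23.0 and 21.1 CPM with bicuculline. In Dnmt3a1-shRNA they were 13.0, 11.5, 12.7 and 12.4 CPM and, with bicuculline, 27.7, 26.6, 25.4 and 23.2 CPM. Again no library of 1 condition reached those of the other, and the log2 fold changes were 0.93 (standard error 0.09, adjusted p = 2.04e-07) and 1.05 (standard error 0.09, adjusted p = 3.14e-08).

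Bcl2l1 (chr2:152780668-152831728), the most abundant survival gene at rest, fell. It went from 121, 113, 98.3 and 115 CPM to 79.0, 86.3, 75.2 and 75.6 CPM in Control-shRNA, and from 129, 132, 109.8 and 118 CPM to 84.5, 76.3, 85.6 and 80.0 CPM in Dnmt3a1-shRNA. All bicuculline libraries lay below all baseline libraries. The log2 fold change was −0.501 (standard error 0.07, adjusted p = 3.28e-05) in Control-shRNA and −0.58 (standard error 0.07, adjusted p = 4.92e-06) in Dnmt3a1-shRNA. In Control-shRNA the value sits on the fold threshold, and in a fit blocked on the replicate number it was −0.4998 (adjusted p = 4.13e-06), which is not a call. The Control-shRNA call was also missed by voom with limma (−0.499) and DESeq2 (−0.49), and was lost without bicuculline replicate 3 (−0.48) or 4 (−0.49) and without baseline replicate 1 (−0.46), 2 (−0.497) or 4 (−0.49), with adjusted p-values of 0.000221 or less in each. The quantification sums over transcripts, so the long survival form and the short death-promoting form of this gene were not separated.

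Bbc3 (chr7:16308393-16318205), which encodes Puma and is a classic target of p53 and FOXO factors, had the largest fall. In Control-shRNA it stood at 24.6, 40.8, 36.6 and 22.7 CPM in baseline and at 7.41, 18.6, 16.7 and 9.79 CPM with bicuculline, with no overlap. In Dnmt3a1-shRNA it went from 20.9, 45.9, 40.0 and 25.7 CPM to 7.64, 18.7, 23.7 and 10.9 CPM, where replicate 3 with bicuculline exceeded replicate 1 in baseline. The fitted level with bicuculline was 0.422 of baseline in Control-shRNA (log2 fold change −1.24, standard error 0.35, adjusted p = 0.00769) and 0.461 in Dnmt3a1-shRNA (−1.12, standard error 0.34, adjusted p = 0.0129). Its libraries varied more than those of the other 9 members.

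Bcl2l11 (chr2:128126038-128162547), which encodes Bim, moved the other way and was among the scarcest members in baseline. Its values were 6.32, 7.62, 7.39 and 6.68 CPM in Control-shRNA in baseline and 6.59, 13.2, 11.7 and 10.2 CPM with bicuculline. Replicate 1 with bicuculline lay within the baseline range and the other three lay above it, a rise of 0.57 on the log2 scale (standard error 0.19, adjusted p = 0.0224). This call was lost without bicuculline replicate 2 (0.44, adjusted p = 0.0874) or 3 (0.51, adjusted p = 0.0642) and without baseline replicate 1 (0.53, adjusted p = 0.0615) or 4 (0.55, adjusted p = 0.053). It was also lost with library sizes in place of TMM (0.42, adjusted p = 0.134). The same held for limma on log2(TPM + 1) (0.39, adjusted p = 0.163) and on log2(TPM + 0.1) (0.47, adjusted p = 0.176). In Dnmt3a1-shRNA the values went from 4.88, 7.32, 7.68 and 6.77 CPM to 9.26, 13.9, 15.3 and 11.4 CPM without overlap, a rise of 0.90 (standard error 0.19, adjusted p = 0.000816) that was called in every alternative run at this fold threshold.

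The remaining BH3-only genes changed less. Bid (chr6:120891930-120916853), which caspase 8 cleaves to link death receptors to mitochondria, went from 17.3, 17.4, 13.7 and 15.6 CPM to 11.7, 11.9, 12.4 and 11.8 CPM in Control-shRNA, below baseline in all libraries. Its log2 fold change there was −0.42 (standard error 0.10, adjusted p = 0.00228), under the fold threshold, and in Dnmt3a1-shRNA it was −0.59 (standard error 0.10, adjusted p = 0.000127), which was called. In Control-shRNA Bid was called with library sizes (−0.58) and on both TPM scales (−0.54 and −0.58). Pmaip1, which encodes Noxa, an inhibitor of Mcl1, gave 0.42 (standard error 0.16, adjusted p = 0.0421) and 0.47 (standard error 0.16, adjusted p = 0.0203). Its 4 bicuculline libraries in Control-shRNA, at 14.4 to 18.2 CPM, lay above the 10.6 to 12.6 CPM of baseline. Among the alternatives other than leaving out a library, the rise was as low as 0.22 and 0.26. The adjusted p there reached 0.414 and 0.31. In Dnmt3a1-shRNA Pmaip1 became a call without bicuculline replicate 1 (0.57) or 4 (0.52) and without baseline replicate 2 (0.51) or 3 (0.60). Hrk gave −0.42 (standard error 0.14, adjusted p = 0.0188) and −0.49 (standard error 0.14, adjusted p = 0.00622), so that Pmaip1 and Hrk passed the adjusted p but not the fold threshold of this fit in either shRNA. Hrk lies near that threshold. In Dnmt3a1-shRNA it was called in the blocked fit (−0.51, adjusted p = 0.000109), by voom with limma (−0.51), without a filter (−0.50), with library sizes (−0.64) and on both TPM scales (−0.69 and −0.70), and in Control-shRNA with library sizes (−0.58) and on both TPM scales (−0.62 and −0.64).

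In the edgeR fit the effectors stayed close to their baseline levels. Bax (chr7:45461697-45466898) stood at 47.0 to 62.4 CPM in Control-shRNA in baseline and at 48.9 to 58.7 CPM with bicuculline, a log2 fold change of 0.02 with a 95% confidence interval of −0.25 to 0.28. Bak1 (chr17:27019810-27029009) stood at 19.0 to 22.4 and 18.5 to 23.1 CPM, a log2 fold change of 0.02 with an interval of −0.20 to 0.24. In Dnmt3a1-shRNA the values were −0.06 (−0.32 to 0.21) for Bax and −0.11 (−0.34 to 0.11) for Bak1. The Control-shRNA values have no fixed sign, since with library sizes in place of TMM they read −0.14 for both genes, a scaling that itself moved the median of all genes by −0.16. In Dnmt3a1-shRNA Bak1 was below 0 in all alternatives, and Bax in all but 2 of the fits without 1 library. Among the alternatives other than leaving out a library, the lowest value of Bak1 there was −0.41 and its lowest adjusted p was 0.0207.

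**Figure D2:**
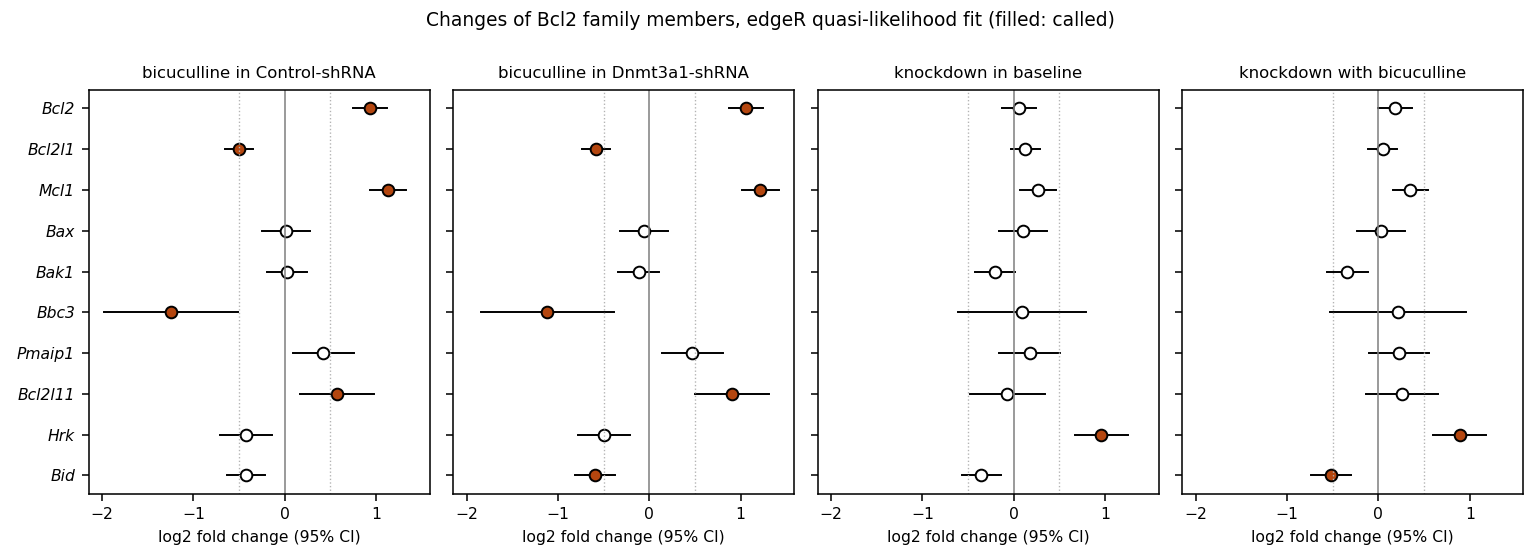
Log2 fold changes of the 10 members from the edgeR fit in the 4 comparisons, with 95% confidence intervals; filled points were called and dotted lines mark the fold threshold of 0.5. Mcl1 at 1.13 and 1.22 and Bcl2 at 0.93 and 1.05 lead with bicuculline, and Hrk at 0.96 and 0.89 leads with the knockdown.

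The shift within the survival genes was also seen in their shares. This summary was chosen after values were seen, and carries no test. In Control-shRNA the summed TPM of Bcl2, Bcl2l1 and Mcl1 was 179 ± 2.87 in baseline and 174 ± 4.59 with bicuculline, while the share of Mcl1 in the sum went from 25.7% ± 1.73 to 51.1% ± 4.19 and that of Bcl2l1 from 72.3% ± 2.04 to 45.5% ± 4.00. In Dnmt3a1-shRNA the sum was 184 ± 11.8 and 192 ± 6.36 TPM, and Mcl1 went from 28.1% ± 2.83 to 56.7% ± 4.62 of it. The ranges of the sums overlapped between conditions in both shRNAs, while those of the Mcl1 share did not. TPM carry no TMM normalisation, and on the log2(TPM + 1) scale the median of all genes moved by −0.15 in Control-shRNA and −0.12 in Dnmt3a1-shRNA relative to the edgeR fit. The summed TPM of Bax and Bak1 was 178 ± 24.6 in baseline and 154 ± 19.2 with bicuculline in Control-shRNA. In Dnmt3a1-shRNA it was 174 ± 28.5 and 142 ± 30.7, and the ranges overlapped in both shRNAs. The summed TPM of the 5 BH3-only genes was 123 ± 24.4 in baseline and 71.7 ± 17.4 with bicuculline in Control-shRNA, and 149 ± 33.7 and 89.9 ± 24.7 in Dnmt3a1-shRNA. Bbc3 supplied 43.8% ± 5.35 of that sum in Control-shRNA in baseline and 26.2% ± 4.66 with bicuculline, and Hrk 31.8% ± 2.19 and 35.1% ± 2.27. In Dnmt3a1-shRNA Hrk was the largest part, with 48.0% ± 7.44 in baseline and 49.1% ± 6.05 with bicuculline.

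**Figure D3:**
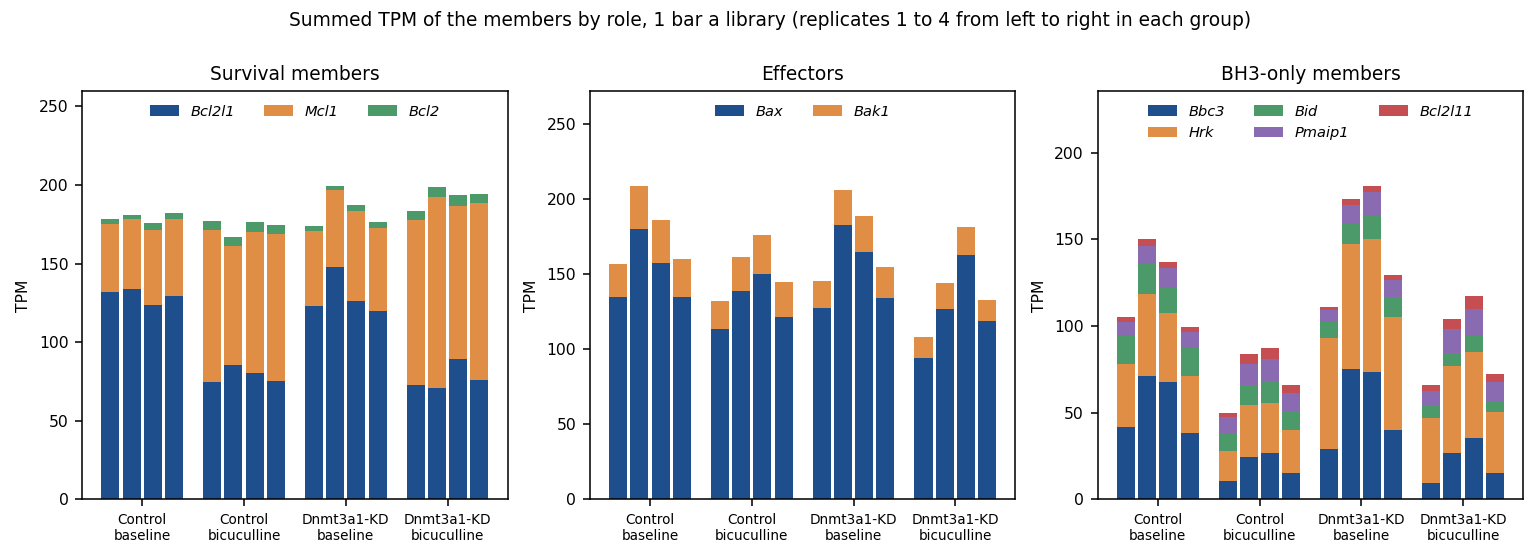
TPM of the members stacked by role, with 1 bar for each of the 16 libraries and replicates 1 to 4 from left to right in each group. The height of the survival stack stays between 167 and 199.6 TPM while Mcl1 takes the place of Bcl2l1, and Hrk makes the largest part of the BH3-only stack in Dnmt3a1-shRNA on average.

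Next, the effect of Dnmt3a1 knockdown was examined in each condition. The main difference was in Hrk, which was higher in Dnmt3a1-shRNA, while Bid was lower. In baseline 1 of the 10 members was called, against 5.83% of all genes tested, and with bicuculline 2 of 10 were called, against 5.89%. The groups did not overlap for 2 of 10 members in baseline, against 19.9% of all genes, and for 2 of 10 with bicuculline, against 20.9%. The baseline comparison shares its Control-shRNA libraries with the first bicuculline comparison, and likewise for the other groups, so that the 4 comparisons are not independent. The summed astrocyte markers given above were shifted upward in Dnmt3a1-shRNA with overlapping ranges, 0 of the 5 were called by edgeR, voom or DESeq2, and 3 had an unadjusted p under 0.05 in baseline and 2 with bicuculline. The summed microglial markers were low throughout and lower in Dnmt3a1-shRNA without overlap, at 1.72 to 2.85 against 3.27 to 4.44 CPM in baseline and 2.22 to 2.74 against 3.42 to 4.77 CPM with bicuculline, with Csf1r called in both conditions (−0.66 and −0.75). In baseline the neuronal marker Tubb3 (0.51) and the pericyte marker Pdgfrb (0.75) were called higher as well. The part of these markers in the results was not tested. The members' median log2 fold change was 0.09 in baseline and 0.20 with bicuculline, beside 0.01 and −0.01 over all genes.

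Hrk (chr5:118164648-118189478) encodes a BH3-only protein found mainly in neurons, where it opposes Bcl2 and Bcl-xL and is induced on loss of trophic support. It stood at 95.6, 116, 93.0 and 81.9 CPM in Control-shRNA in baseline and at 189, 199.9, 188 and 175 CPM in Dnmt3a1-shRNA. With bicuculline it stood at 52.6, 85.0, 78.8 and 71.6 CPM against 125, 159, 142 and 108 CPM. The lowest Dnmt3a1-shRNA library thus exceeded the highest Control-shRNA library in either condition. The log2 fold change was 0.96 (1.94-fold, standard error 0.14, adjusted p = 0.000117) in baseline and 0.89 (1.85-fold, standard error 0.14, adjusted p = 0.000256) with bicuculline, and both were called in every alternative run with the fold threshold of 0.5. In addition, bicuculline lowered Hrk within Dnmt3a1-shRNA to 108 to 159 CPM, below all 4 baseline libraries of that shRNA.

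Bid was lower in Dnmt3a1-shRNA. In baseline it stood at 10.96, 14.0, 12.6 and 12.5 CPM, against the 13.7 to 17.4 CPM of Control-shRNA, and with bicuculline at 7.84, 7.997, 9.91 and 7.42 CPM against 11.7 to 12.4 CPM. The groups overlapped in baseline (log2 ratio −0.35, standard error 0.10, adjusted p = 0.0209, under the fold threshold) and did not overlap with bicuculline (−0.52, standard error 0.10, adjusted p = 0.00206, called). Without Dnmt3a1-shRNA bicuculline replicate 4 the second value was −0.48 (adjusted p = 0.00852) and missed the fold threshold. Bid shares 628 of its 3550 exon bases (17.7%) with Bcl2l13 on the opposite strand, a mitochondrial member of the wider family with a mean of 71.4 CPM, and whether the libraries keep strand is not given in the sources used here. Values of Bid are therefore uncertain, for bicuculline as for the knockdown. Bcl2l13 itself was higher in Dnmt3a1-shRNA by 0.17 (standard error 0.05, adjusted p = 0.0323) in baseline and by 0.19 (standard error 0.05, adjusted p = 0.0218) with bicuculline, and was examined because of this overlap. With bicuculline Bcl2l13 rose by 0.43 (adjusted p = 4.86e-06) in Control-shRNA and by 0.44 (adjusted p = 2.62e-06) in Dnmt3a1-shRNA. Both rises were under the fold threshold, and the libraries of the conditions did not overlap in either shRNA.

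Among the other members, Mcl1 was higher in Dnmt3a1-shRNA with bicuculline by 0.35 (standard error 0.09, adjusted p = 0.014) and Bak1 was lower by 0.34 on the log2 scale, with a fitted level of 0.79 of Control-shRNA (adjusted p = 0.0326), both under the fold threshold, although on log2(TPM + 0.1) Bak1 was called (−0.52, adjusted p = 0.0193). In baseline Mcl1 gave 0.26 (95% confidence interval 0.06 to 0.46, adjusted p = 0.0679), although its 4 Dnmt3a1-shRNA libraries, from 83.7 CPM, lay above the highest Control-shRNA library at 77.4 CPM. This adjusted p depended on the fit. It ranged from 0.031 to 0.157 in fits without 1 library (0.23 to 0.30) and from 0.011 to 0.294 in the other alternatives (0.16 to 0.27). For Bcl2 the intervals were −0.13 to 0.25 in baseline and 0.0013 to 0.36 with bicuculline, for Bcl2l1 −0.03 to 0.28 and −0.11 to 0.20, and for Bax −0.16 to 0.36 and −0.23 to 0.29. Those of Bbc3 were wide, at −0.61 to 0.79 and −0.53 to 0.96, so that changes of up to 0.79 in baseline lie within its error in this fit. All these intervals come from the fit without pairing, in which spread between replicate numbers counts as error. Pmaip1 gave 0.18 and 0.23, and Bcl2l11 −0.07 and 0.26, and neither passed the adjusted p of this fit in either condition. Among the alternatives other than leaving out a library, the lowest adjusted p of Bcl2l11 with bicuculline was 0.0411. Its log2 fold changes there were 0.15 to 0.28, under the fold threshold.

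The response to bicuculline was then compared between the shRNAs by the interaction term. None of the 10 members was called, against 0% of all genes tested in edgeR, where 852 of the 17222 genes had an unadjusted p under 0.05. No member was among these, and no member was called by voom with limma or by DESeq2. Over all genes voom called 0 and DESeq2 called 18. The largest difference was that of Bcl2l11, whose log2 fold change with bicuculline was higher by 0.33 in Dnmt3a1-shRNA, with a 95% confidence interval of −0.24 to 0.90. The intervals were narrowest for Bcl2l1, from −0.30 to 0.14, and for Bcl2, from −0.14 to 0.39, and widest for Bbc3, from −0.89 to 1.15. These intervals come from the fit without pairing. In a fit blocked on the replicate number the standard error of the Bbc3 interaction was 0.16 in place of 0.48, at 0.14 (adjusted p = 0.847), and that of Bcl2l11 was 0.14 in place of 0.27, at 0.35 (adjusted p = 0.45).

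The spread within groups was not the same for all members and followed the replicate number. This was noticed in the data and carries no test. For Bbc3 and Pmaip1, replicates 1 and 4 lay below and replicates 2 and 3 above the mean of their group in all 4 groups. In Bbc3 the mean deviation was −0.62 and −0.34 on the log2 scale for replicates 1 and 4 and 0.50 and 0.46 for replicates 2 and 3. Bcl2l11 lay below its group mean in replicate 1 and above it in replicates 2 and 3 in all 4 groups, with mean deviations of −0.40, 0.21 and 0.21, and Bak1 did the same with smaller ones of −0.17, 0.12 and 0.11. Bax was below the mean in replicates 1 and 4 and above it in replicate 2 in all 4 groups. Mcl1 was opposite to Bbc3 in replicates 3 and 4, at −0.10 and 0.07 on average, below and above the mean in all 4 groups. Several death genes thus moved together from replicate to replicate by amounts that, for Bbc3, were of the same order as the change with bicuculline. The mitochondrial share of counts was highest in replicate 1 and lowest in replicate 3 of every group, and its part in these deviations was not tested. In a fit blocked on the replicate number, the standard error of Bbc3 with bicuculline in Control-shRNA was 0.11 in place of 0.35, at a log2 fold change of −1.29 (adjusted p = 6.17e-08).

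**Figure D4:**
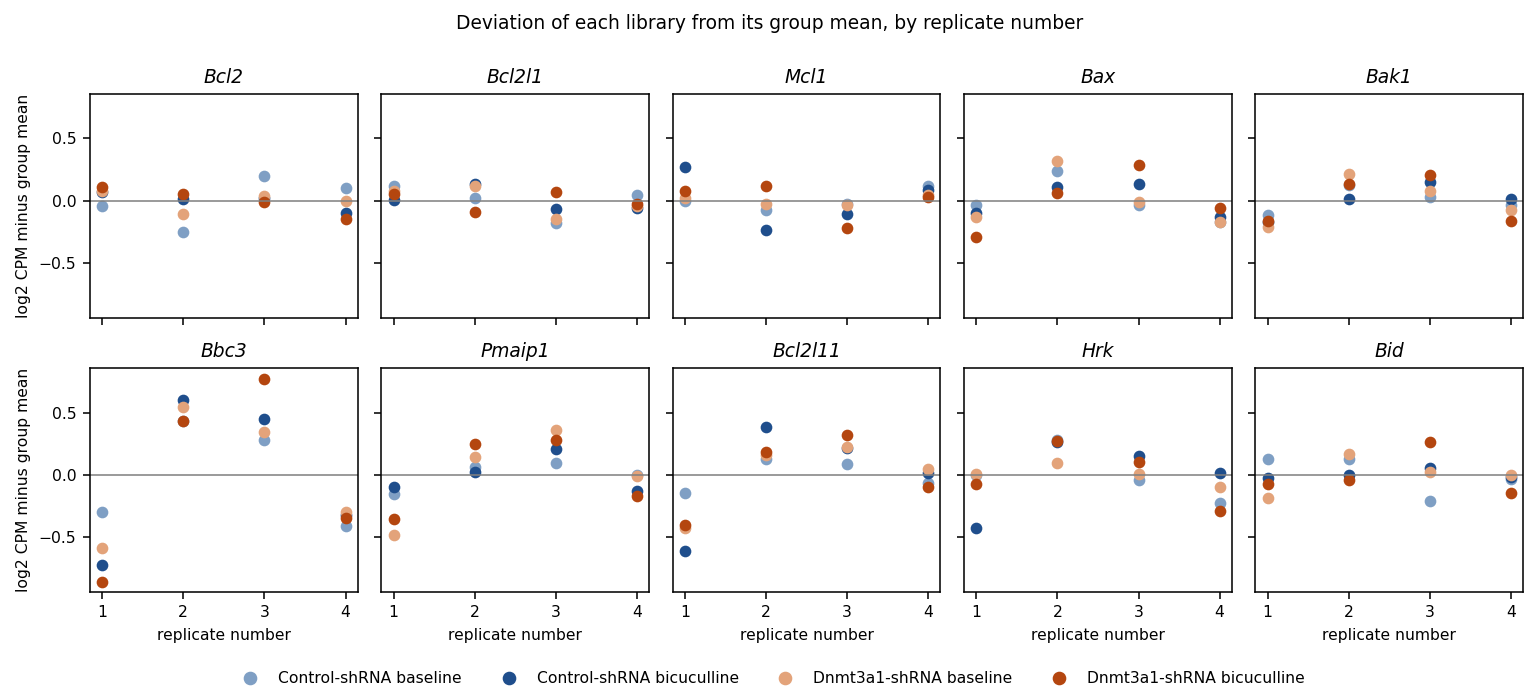
Deviation of each library's log2 CPM from the mean of its group, by replicate number, with colours for the 4 groups. For Bbc3, Pmaip1 and Bcl2l11 all 4 groups lie below 0 in replicate 1 and above 0 in replicates 2 and 3.

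Genes around the family were read from 6 lists of 78 genes. Of the activity-regulated survival genes, a set of nuclear calcium targets known to protect hippocampal neurons, 10 of 10 rose with bicuculline in both shRNAs, against 10.8% of all genes tested in Control-shRNA and 12.6% in Dnmt3a1-shRNA. The median log2 fold change was 4.58 in Control-shRNA and 4.79 in Dnmt3a1-shRNA. These genes were listed because activity is known to regulate them, so the count describes the stimulus and is not an independent result. In Control-shRNA the synaptic activity factor Npas4 went from a mean of 10.4 to 1662 CPM, the activin subunit Inhba from 6.85 to 303 CPM, the stress factor Atf3 from 3.28 to 145 CPM and Serpinb2, an inhibitor of plasminogen activators, from 0.0695 to 65.1 CPM. With the knockdown, Bdnf alone of this list was called, and only in baseline (−0.74, standard error 0.18, adjusted p = 0.009), with groups that overlapped. With bicuculline 0 of the 10 were called by edgeR, voom or DESeq2, and 0 had an unadjusted p under 0.05.

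Of the 16 genes of the mitochondrial death pathway, 3 fell with bicuculline in Control-shRNA, against 11.1% of all genes, and 4 fell in Dnmt3a1-shRNA, against 13.2%. The median of the list was −0.20 and −0.17. Apaf1, the scaffold of the apoptosome, fell by 0.75 and 0.89 on the log2 scale in Control-shRNA and Dnmt3a1-shRNA. Casp9, the initiator caspase it recruits, fell by 0.65 and 0.73, and Casp2 fell by 0.90 and 1.10. Dffa, the inhibitor of the caspase-activated DNase, was the fourth gene to fall in Dnmt3a1-shRNA (−0.54, adjusted p = 4.66e-05). With the knockdown Dffa was lower in both conditions and passed the fold threshold with bicuculline (−0.74, adjusted p = 1.34e-05) but not in baseline (−0.46, adjusted p = 0.000951). The interaction of Dffa was not called (adjusted p = 0.974).

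Among the upstream regulators of BH3-only genes, 6 of 18 rose and 1 fell with bicuculline in Control-shRNA, against 10.8% and 11.1% of all genes, and 6 rose and 4 fell in Dnmt3a1-shRNA, against 12.6% and 13.2%. The largest rises in Control-shRNA were those of the AP-1 factor Jun, from 99.0 to 533 CPM (2.43), the p53 target and stress sensor Sesn2, from 93.4 to 303 CPM (1.70), the cell cycle inhibitor Cdkn1a (1.24) and the stress factor Atf4 (1.10). Foxo1, a transcription factor known to drive Bbc3 and Bcl2l11, was named after its values were seen. It fell by 1.003 in Control-shRNA and by 1.11 in Dnmt3a1-shRNA, from 70.4 to 35.2 CPM and from 99.5 to 46.0 CPM. With the knockdown Foxo1 was higher, by 0.498 in baseline (standard error 0.08, adjusted p = 0.000326) and by 0.39 with bicuculline (standard error 0.08, adjusted p = 0.00325). Both values were under the fold threshold, the first just under it, and the groups did not overlap in either condition. With the knockdown 1 of the 18 was called in each condition, against 5.83% and 5.89% of all genes. It was Map3k12, the dual leucine zipper kinase of the neuronal injury response, with 73.8 against 134 CPM in baseline (−0.86, standard error 0.07, adjusted p = 1.49e-07) and 39.0 against 105 CPM with bicuculline (−1.43, standard error 0.07). DESeq2 called 2 of the 18 in baseline and 1 for the interaction. Map3k12 had log2 fold changes with bicuculline of −0.35 in Control-shRNA and −0.92 in Dnmt3a1-shRNA, and its interaction of −0.58 (95% confidence interval −0.77 to −0.38) was not called by edgeR (adjusted p = 0.147).

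The rest of the family and the other lists held few called genes. Of the 16 further Bcl2 relatives 9 passed the filter, and the low ones were Bcl2a1a, Bcl2a1b, Bcl2a1d, Bcl2l10, Bik, Bcl2l14 and Bcl2l15. Among these 9, edgeR, voom and DESeq2 called 0 with bicuculline in Control-shRNA, where 2 had an unadjusted p under 0.05. These 2 were Bcl2l2 and Bcl2l13, and Bcl2l13 alone passed the adjusted p, with the rise given above. The BH3-only gene Bmf was called in Dnmt3a1-shRNA (−0.61, standard error 0.20, adjusted p = 0.0184), and Bok, a relative of Bax, was lower with the knockdown in baseline (−0.501, standard error 0.13, adjusted p = 0.011), a value on the fold threshold that DESeq2 did not call. Of the caspase inhibitors 5 of 8 were tested, without Naip1, Naip2 and Naip5. By edgeR, voom and DESeq2 0 were called in any comparison, although 3 had an unadjusted p under 0.05 with bicuculline in Control-shRNA and 2 in Dnmt3a1-shRNA, and 1 with the knockdown in each condition. In the death receptor pathway, where Fasl was under the filter, Cflar, an inhibitor of caspase 8, rose with bicuculline in both shRNAs (0.92 and 0.81) and the adaptor Tradd fell in Dnmt3a1-shRNA (−0.54).

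**Figure D5:**
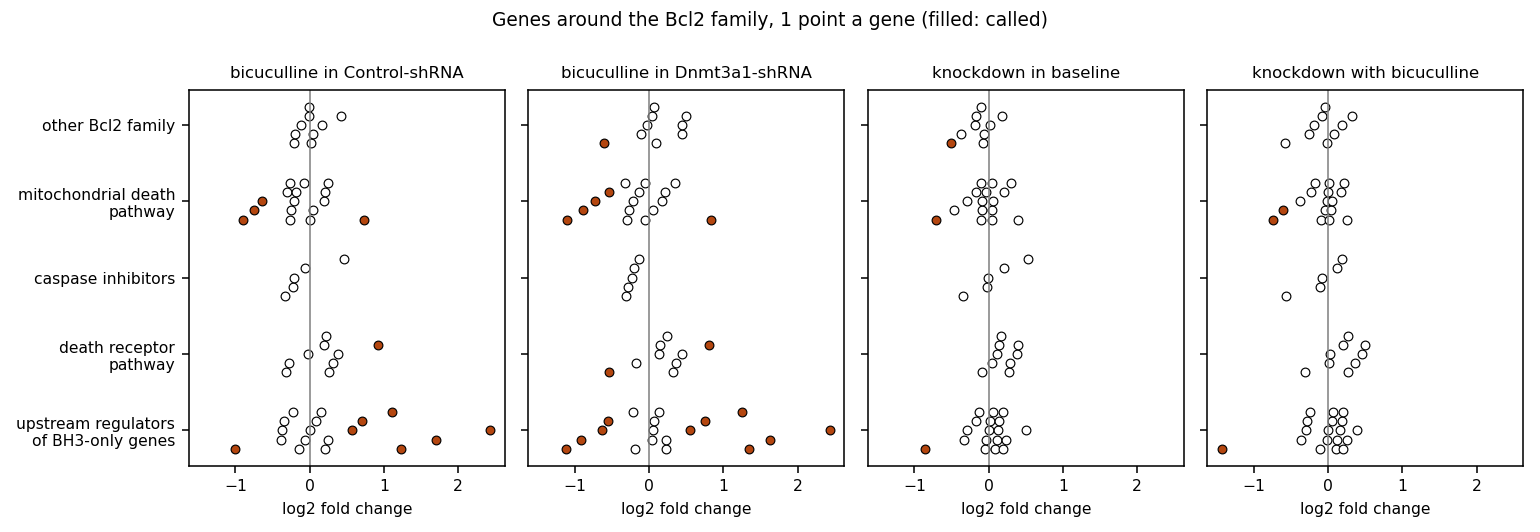
Log2 fold changes of the tested genes of 5 lists around the family in the 4 comparisons, with 1 point for each gene, spread vertically for display, and filled points for called genes. With bicuculline called genes lie on both sides of 0, from −1.11 for Foxo1 to 2.44 for Jun, and with the knockdown the few called genes lie below 0.

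Genes with the most similar course over the 16 libraries were sought for each called member, by the root mean square difference of centred log2 CPM among 13880 tested genes whose mean reached 1 CPM. For Mcl1 these were Zfand5 (0.08, beside a root mean square of 0.61 for Mcl1 itself), Hnrnpll and Ankrd28. For Bcl2 they were Usp38 (0.09 beside 0.51), the BDNF receptor gene Ntrk2 and Cdk13, and for Bcl2l1 Coro2b (0.07 beside 0.29), Elmo2 and Aacs. The nearest to Bbc3 was Pik3ip1, an inhibitor of PI3 kinase, at 0.25 beside 0.81, followed by B3gnt7 and Wnt7a. For Bcl2l11 the nearest were Zfp219 (0.15 beside 0.46), Clic4 and Gm42047, for Hrk Rnf144a (0.13 beside 0.56), Tspan14 and Sox12, and for Bid AI854703 (0.10 beside 0.36), Sgpp1 and Adck2. These lists describe likeness only.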

How the data were processed

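RNA from 16 mouse hippocampal cultures, 4 for each shRNA and condition, was sequenced by the study, and groups and replicate numbers were taken from the sample labels. Per the labels, the authors trimmed reads with Trim Galore (0.6.4) and quantified them with kallisto (0.4.6, as the submitters' processing notes write it). The deposited tables held estimated counts per gene, summed over transcripts, and the deposited TPM (scaled for length and depth), on GENCODE identifiers of GRCm38. Of 55385 identifiers 55144 were matched to symbols without their version. Whether the libraries keep strand is not given in the sources used here. Estimated counts were rounded, filtered with filterByExpr to 17222 genes, normalised with TMM (factors 0.871 to 1.12) and tested in 1 fit of the 4 groups with the quasi-likelihood test of edgeR (4.0.16, R 4.3.3), with Benjamini-Hochberg adjustment over all genes tested. Intervals are at 95%. A call needed an adjusted p under 0.05 and a log2 fold change over 0.5 in size, and for the interaction the adjusted p alone.

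Voom with limma (3.58.1), DESeq2 (1.42.0), other scalings and filters, limma on log2(TPM + 1) and log2(TPM + 0.1), fits of only the groups compared, a replicate block and fits without 1 library were alternatives. The fits were tested on simulated data. The study reports 4 independent neuronal preparations per condition, and each library was counted as a sample. Libraries of one group differed beyond sampling noise (chi-square divided by its degrees of freedom, 7.64 to 42.6), which alone cannot show that they are independent. P-values measure the spread between these libraries. Same-numbered libraries deviated together for bicuculline in Control-shRNA (r = 0.11 to 0.17 over genes) and for the knockdown in baseline (r = 0.17 to 0.31). Differently numbered libraries gave −0.20 to 0.20 (median −0.10) and −0.24 to 0.16 (median −0.09), so the ranges overlapped in the first of these comparisons. The likeness of same-numbered libraries was taken as pairing from the data, since the labels do not say what a number marks. Named genes were the 10 members, Dnmt3a, up to 4 called genes with the largest change per list and comparison, and the 3 genes most alike to a called member. The members and lists were chosen with earlier results of these data known, and the motifs, CpG counts, TPM shares and replicate deviations after values were seen. Bak1, Bax and Bcl2 share exon bases with genes whose means were 0.425 CPM or less. The result of 1 listed gene is not reported here.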

Additional observations from a re-analysis of the deposited data

How the results depend on the processing

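Of 1342 values of single genes under the alternatives, 1253 kept their direction and their side of the thresholds, 22 became calls, 18 lost a call and 49 changed sign, none of them called. Hrk with the knockdown, and Mcl1, Bcl2 and Bbc3 with bicuculline, were called in all alternatives at the fold threshold of 0.5. For bicuculline in Control-shRNA the count of members called was 8 of 10 without a fold threshold, against 7131 of the 17222 genes tested. It was 2 at a log2 fold change over 1 and 3 to 5 in fits without 1 library. It was 3 without bicuculline replicate 3 or baseline replicate 1 or 4. In Dnmt3a1-shRNA it was 3 at a log2 fold change over 1 and 6 to 7 without 1 library. For the knockdown in baseline it was 2 on log2(TPM + 0.1), against 987 of the 17222 genes, and 2 without a fold threshold, against 2809. It was 0 at a log2 fold change over 1 and 1 in each fit without 1 library. For the knockdown with bicuculline it was 3 on log2(TPM + 0.1), where Bak1 was added, against 1018 of the 17222 genes. It was 4 without a fold threshold, against 3046 genes, and 0 over 1. Without 1 library it was 1 to 2, with 1 without Dnmt3a1-shRNA bicuculline replicate 4. Shares of all genes are not given for a log2 fold change over 1 or for fits without 1 library, so these counts have no background. The interaction count was 0 throughout, and over all genes it was 18 by DESeq2, 3 without a filter, 3 with the block and 1 without Control-shRNA bicuculline replicate 1.

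Signs changed with library sizes, log2(TPM + 1) and log2(TPM + 0.1) for bicuculline in Control-shRNA in Bax (−0.14, −0.21 and −0.21) and Bak1 (−0.14, −0.19 and −0.19), for the knockdown in baseline in Bcl2 (−0.024, −0.036 and −0.043), and for the knockdown with bicuculline in Bcl2l1 (−0.023, −0.037 and −0.037) and Bax (−0.037, −0.075 and −0.076). On the 2 TPM scales alone they changed for the knockdown in baseline in Bcl2l1 (−0.0090 and −0.0091) and Bbc3 (−0.065 and −0.067). In fits without 1 library, values crossed 0 for bicuculline in Control-shRNA in Bak1 (−0.029 to 0.073) and Bax (−0.038 to 0.10), and in Dnmt3a1-shRNA in Bax (−0.16 to 0.061). For the knockdown in baseline they did so in Bax (−0.016 to 0.19), Bbc3 (−0.11 to 0.25), Bcl2 (−0.021 to 0.13) and Bcl2l11 (−0.15 to 0.051), and with bicuculline in Bax (−0.077 to 0.11) and Bbc3 (−0.080 to 0.43). For the interaction they did so in Bax (−0.18 to 0.044), Bbc3 (−0.17 to 0.35), Hrk (−0.19 to 0.022) and Pmaip1 (−0.085 to 0.18).

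Of the calls, 49.2%, 48.9%, 30.2% and 33.9% were higher for bicuculline in Control-shRNA and Dnmt3a1-shRNA and for the knockdown in baseline and with bicuculline, against 31.0%, 32.8%, 14.2% and 19.2% with library sizes, 28.6%, 30.6%, 9.11% and 14.5% on log2(TPM + 1), and 27.9%, 30.2%, 10.03% and 14.5% on log2(TPM + 0.1). With the replicate block the members called were 4, 7, 1 and 2 in these comparisons, against 3986, 4612, 1284 and 1338 of the 17222 genes. Bcl2l1 was lost in Control-shRNA and Hrk gained in Dnmt3a1-shRNA (−0.51, adjusted p = 0.000109), and no other member's call changed. For bicuculline in Dnmt3a1-shRNA and the knockdown with bicuculline the same-numbered libraries correlated at 0.06 to 0.28 and 0.03 to 0.33, not all over 0.1. Differently numbered ones gave −0.25 to 0.15 and −0.34 to 0.25, ranges that overlapped with these. Where no value shows a cause, the cause was not tested.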
